A study of Mus musculus with 12 samples.

Results

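Heat shock proteins and chaperonins were studied here as a group of genes in BCR-ABL1 transformed mouse B-ALL cells with and without LY2090314, an inhibitor of the kinase GSK3. The rule goes by symbol, not by response: every gene that begins with Hspa, Hspb, Hspd, Hspe, Hsph, Hsp90 or Dnaj, together with *Tcp1* and *Cct2* to *Cct8* (with *Cct6a*). Of the 41444 genes in the expression table, 81 had such a symbol after 10 symbols with -ps, the usual mark of a pseudogene, were left out. A mean level of at least 3 on the deposited scale was reached by 65 of the 81, and these 65 are the members described below. Levels are given as deposited, on the regularized log2 scale (rlog). This scale corrects for sequencing depth and pulls genes with few reads towards their own mean, which makes differences of low-expressed genes look smaller than they are. Just inside the limit were *Hspa1a* (mean rlog 3.62) and *Hspbap1* (3.84), and just outside it were *Hspa12b* (1.396) and *Dnaja4* (0.87). The rest of the 16 genes under the limit were lower still. They included the small heat shock protein gene *Hspb1*, at −2.28 in all 6 samples, and 7 genes that were listed at 0 in every sample.

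The cells were pre-B cells from the bone marrow of *Ctnnb1* fl/fl mice, whose β-catenin gene is flanked by loxP sites. They were expanded with IL-7 and transformed with a BCR-ABL1 retrovirus. The study holds 12 samples in 4 groups of 3, and 2 groups are used here. The control group carried ERT2, a vector without Cre that leaves β-catenin intact, and received 1 µM 4-OHT, the tamoxifen metabolite that activates Cre-ERT2, for 2 days. The treated group, ERT2_Ly, carried the same vector, received the same 4-OHT and was exposed in addition to 40 nM LY2090314 for 1 day, according to the labels. The legend of the study gives a shorter exposure. Both groups therefore share the floxed alleles, the oncogene, the vector and 4-OHT, and by the labels they differ by LY2090314. The numbers that open the column names are lower in every control sample than in every treated sample. Whether they follow the order of preparation is not given, and an effect of such an order cannot be told apart from LY2090314. The CreERT2 samples are not analysed here, since no column of the table could be matched to them by name alone. The legend describes replicates as separate mice, but column names do not show which mouse a sample came from, so p-values measure the spread between these samples only. GSK3 inhibition prevents the degradation of β-catenin, and *Axin2*, a target and feedback inhibitor of β-catenin, rose from 6.31 to 7.97 (difference 1.67 on the log2 scale, adjusted p = 1.5e-05, limma).

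Molecular chaperones bind unfolded proteins and help them to reach or keep their native form. HSP70 proteins work in cycles of ATP hydrolysis that J-domain proteins (the DNAJ families) start and nucleotide exchange factors reset, and they pass clients to HSP90, which matures kinases and receptors. The chaperonins are closed folding chambers, namely TRiC (also called CCT) in the cytosol, whose clients include actin and tubulin, and HSP60 with its lid HSP10 in the mitochondrial matrix. The endoplasmic reticulum (ER) has chaperones of its own, led by BiP (*Hspa5*) and GRP94 (*Hsp90b1*). Heat shock factors and the unfolded protein response are the best known inducers of the cytosolic and the ER set. BCR-ABL1 itself is a known HSP90 client.

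Transcripts of the HSP60 pair, of most TRiC subunits and of most listed mitochondrial J-proteins were lower in cells treated with LY2090314. Of 10 members listed as ER, 4 were higher and 0 lower, and of all 37 J-proteins, 10 were higher (27.0%) and 12 lower (32.4%). In detail, 38 of the 65 members (58.5%) differed at an adjusted p under 0.05 (limma, adjusted over all genes tested), 12 higher and 26 lower. The background was large: of all 11536 genes tested, 50.1% passed, 24.8% higher and 25.3% lower. The share of members that were higher was 18.5% and the share that were lower was 40.0%. The median log2 difference was −0.17 over the members and 0.01 over all genes. In 49 members (75.4%) the 3 treated values did not overlap with the 3 control values, against 58.6% of all genes. The changes were small in size. The median size of a called change was 0.40 in the members and 0.43 in all genes, and 1 member, *Dnajc7*, changed by more than 1 on the log2 scale.

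**Figure D1:**
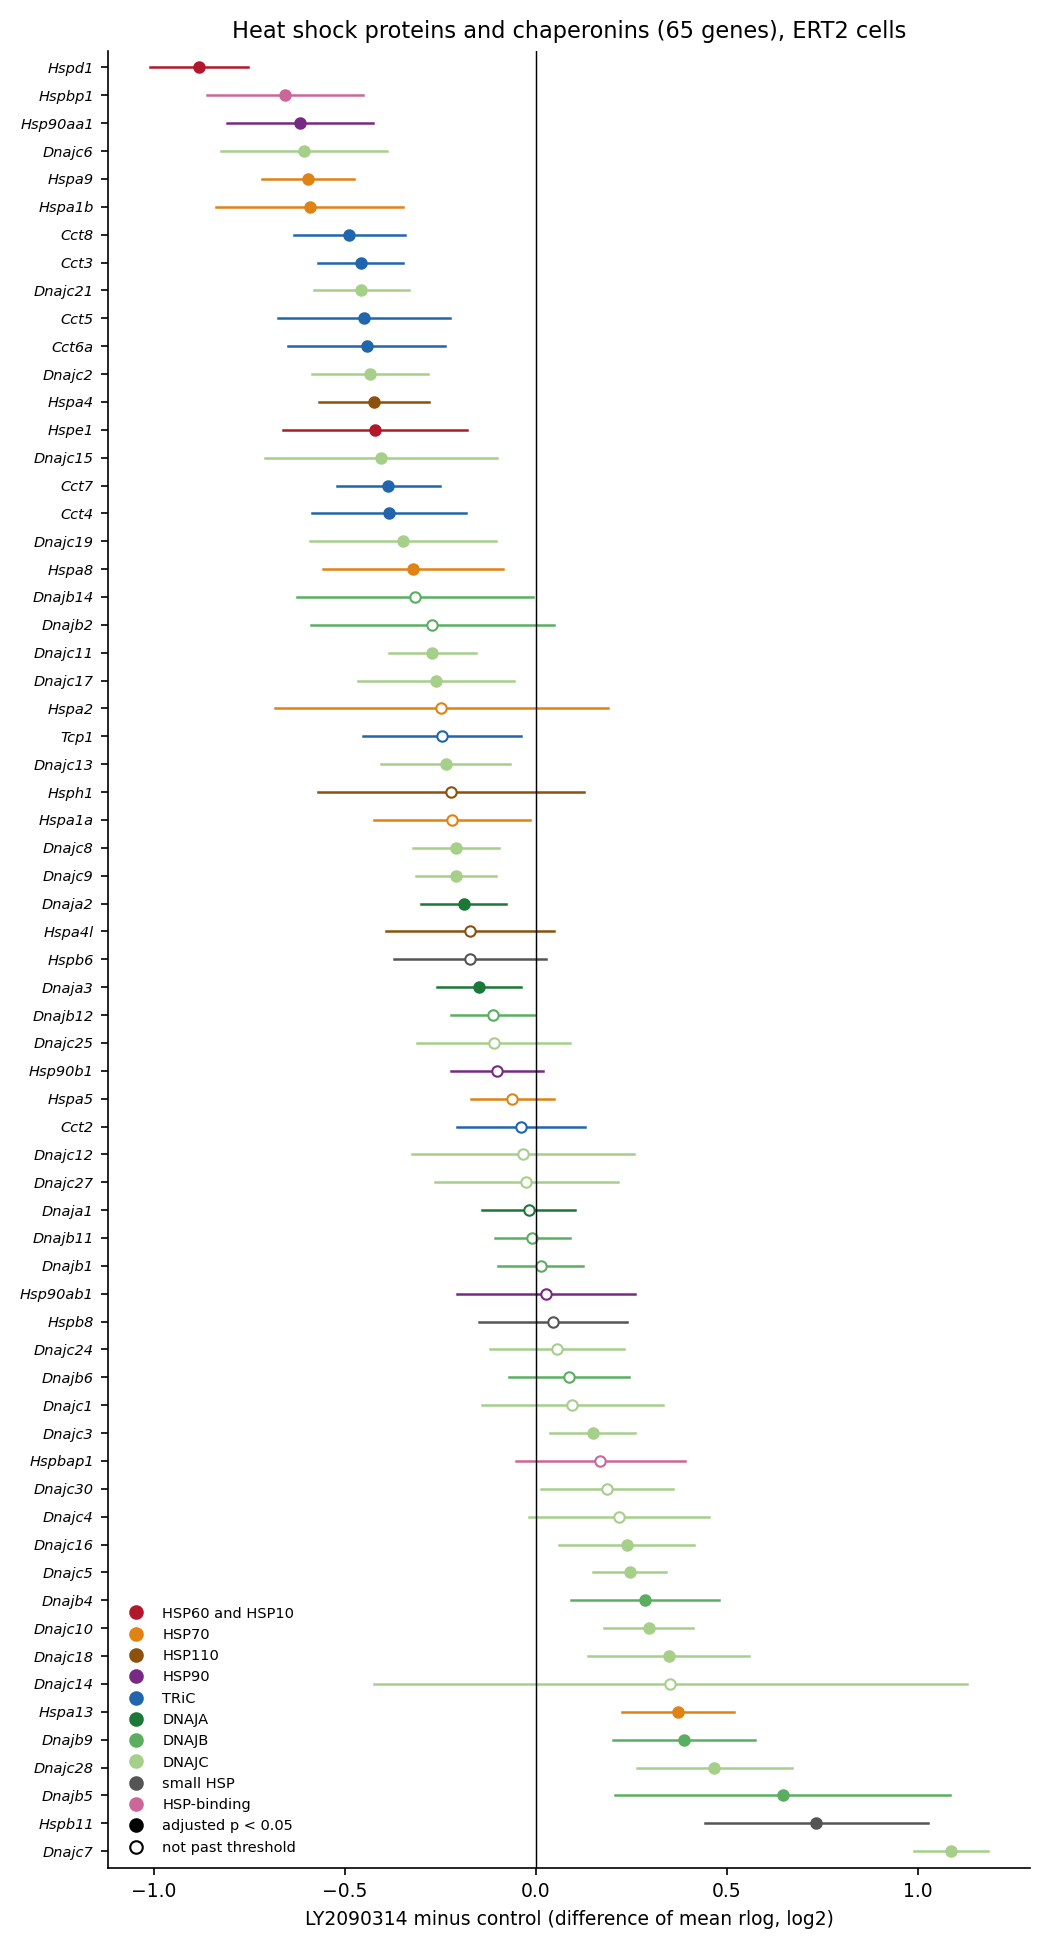
Difference of the mean rlog value (log2, LY2090314 minus control, horizontal axis) for each of the 65 members, ordered from the most negative to the most positive, with 95% confidence intervals from limma (3 samples per group). Colours mark the class of the gene, filled points passed an adjusted p under 0.05, and the points run from *Hspd1* at −0.88 to *Dnajc7* at 1.09.

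The same 6 libraries stand behind every value. The third treated sample had the highest of the 3 treated values in 39 of the 65 members and in 19 of the 26 members that fell, against 43.0% of all genes, and the third control sample had the highest control value in 41 of the 65 (42.3% of all genes). A pair of treated samples shares a library number in the column names. Over all genes tested, the SD of their difference was 0.186, against 0.253 for both other treated pairs and 0.185 to 0.239 for the control pairs. Over the members it was 0.187, against 0.178 to 0.179 and 0.158 to 0.202, and over the members that fell 0.102, against 0.144 to 0.149 and 0.064 to 0.127. They were counted as separate samples, as the labels list them, and as 1 sample in an alternative. That alternative ended the calls of *Hspa8*, *Dnaja3*, *Dnajc15*, *Dnajc3*, *Dnajc16* and *Dnajc17* and left 32 of the 38 members called. All 12 genes of the pre-B marker list were above the limit, and their summed level was lower with LY2090314 (15.81 to 15.96, against 16.34 to 16.36 in control samples). None of the markers of T cells (0 of 7), erythroid cells (0 of 4) or stromal cells (0 of 5) reached the limit, and of 7 myeloid markers only *Lyz2* did, while *Mpo*, *Elane* and *S100a8* were listed at 0. The summed myeloid level was 5.88 to 6.08 in control and 6.42 to 6.54 in treated samples. The part of these shifts in the results was not tested. In bulk RNA, fewer cells of a type and less RNA per cell cannot be told apart.

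Promoter sequences from RefSeq (GRCm38.p6, 250 bases before to 50 bases after each annotated start) were found for 53 of the 65 members, with 70 windows in all. Parts of some are shown, with a recognition sequence of the 2 inducers named above or, for *Hspd1* and *Dnajb9*, with the E-box CACGTG. The heat shock element, written as GAANNTTCNNGAA or TTCNNGAANNTTC and searched on both strands, was present in 6 of the 70 windows (8.57%) and in 0.603% of all 32851 windows. These windows belong to *Hspd1*, *Hspe1*, *Dnajb6* and *Hsph1*, and some of them overlap, so they are not independent. *Hspd1* and *Hspe1*, which encode HSP60 and HSP10, lie head to head on chromosome 1. Annotated starts of *Hspd1* on the minus strand are at 55088243 and 55087932, and that of *Hspe1* on the plus strand is at 55088148, so a single stretch of overlapping elements falls in windows of both genes. It is shown for *Hspe1* (chr1:55088019-55088116, plus strand) beside the element of *Dnajb6* (chr5:29735812-29735904, plus strand), with matches in capitals. The last line is a stretch upstream of the *Hspd1* start at 55088243, the gene with the largest fall, with the E-box CACGTG in capitals (chr1:55088288-55088353, minus strand). The E-box, the site of Myc-family and related factors, was in 11.4% of the members' windows and 7.15% of all windows.
Hspe1: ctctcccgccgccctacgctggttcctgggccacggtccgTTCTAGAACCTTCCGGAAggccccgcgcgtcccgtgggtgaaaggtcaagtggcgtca
Dnajb6: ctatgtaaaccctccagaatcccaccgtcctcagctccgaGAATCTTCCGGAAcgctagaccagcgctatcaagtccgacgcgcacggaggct
Hspd1: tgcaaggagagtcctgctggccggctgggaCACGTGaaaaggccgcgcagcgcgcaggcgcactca

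The ER stress response element, CCAAT followed after 9 bases by CCACG, was in 3 of the 70 windows (4.29%) and in 0.119% of all windows. The 3 genes are *Hspa5*, *Hsp90b1* and *Dnajc3*, all ER chaperones. They are shown in that order (chr2:34771995-34772073, plus strand; chr10:86705503-86705686, minus strand; chr14:118937797-118937875, plus strand), with matches in capitals. The second match of *Hsp90b1* lies on the opposite strand. *Dnajb9*, the ER member with the largest rise, had no such match in its window and is shown with its E-box (chr12:44210140-44210205, minus strand).
Hspa5: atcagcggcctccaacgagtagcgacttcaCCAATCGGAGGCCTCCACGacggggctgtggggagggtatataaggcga
Hsp90b1: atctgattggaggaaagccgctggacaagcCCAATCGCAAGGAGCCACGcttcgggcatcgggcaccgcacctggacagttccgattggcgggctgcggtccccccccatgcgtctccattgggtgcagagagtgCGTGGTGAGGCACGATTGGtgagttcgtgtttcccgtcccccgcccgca
Dnajc3: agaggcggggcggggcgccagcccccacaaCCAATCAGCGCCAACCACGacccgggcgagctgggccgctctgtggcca
Dnajb9: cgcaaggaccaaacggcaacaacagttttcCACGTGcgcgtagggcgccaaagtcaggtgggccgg

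Members with a match included genes in either direction and genes without a call. Of the genes with a heat shock element, *Hspd1* and *Hspe1* fell, and *Dnajb6* (difference 0.09) and *Hsph1* (−0.22) did not pass the test. Of the genes with an ER stress response element, *Dnajc3* rose and *Hspa5* and *Hsp90b1* did not pass. The E-box was in 2 of 20 members that fell, 2 of 9 that rose and 3 of 24 that did not pass. The plain CCAAT box, which lies within the ER stress response element, was in 40.0% of the members' windows and 37.4% of all windows, and the shorter heat shock dimer (GAANNTTC or TTCNNGAA), which lies within the heat shock element, in 24.3% and 15.1%. The TCF/LEF sequence CTTTGAT, the site of the DNA-binding partners of β-catenin, was in 5 windows (7.14%, against 3.73% of all windows), those of *Cct5*, *Cct8*, *Dnajc4* and *Hspb6*. A match is a description of the letters in these windows and says nothing about binding.

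The mitochondrial chaperonin fell most. *Hspd1* (ENSMUSG00000025980, chromosome 1, 55077835 to 55088243 of GRCm38, minus strand), which encodes HSP60, had rlog values of 13.88, 13.81 and 13.88 in control samples and of 12.93, 12.95 and 13.05 with LY2090314. All 3 treated samples were lower than every control sample, with a gap many times the spread within a group. The mean went from 13.86 ± 0.038 to 12.98 ± 0.064 (SD, n = 3 each), a log2 fall of 0.88 (standard error 0.055, adjusted p = 9.2e-06, limma) and a level 1.84-fold lower on the linear scale. Its neighbour *Hspe1* (ENSMUSG00000073676, 55088132 to 55091307, plus strand), which encodes the lid HSP10, went from 11.23, 11.23 and 11.34 to 10.67, 10.78 and 11.10. The groups did not overlap, but the third treated sample came close to the controls. *Hspe1* fell by 0.42 (standard error 0.10, adjusted p = 0.011, limma), or 1.34-fold. The first exons of the 2 genes overlap on opposite strands, and whether the counting used strand is not given in the sources used here.

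The fall of *Hspd1* exceeded that of *Hspe1* in each comparison of samples. *Hspd1* minus *Hspe1* was 2.65, 2.58 and 2.54 in control samples and 2.26, 2.17 and 1.95 with LY2090314, with no overlap. For such a single value, 3 samples against 3 cannot give an exact two-sided permutation p below 0.10. Per length of the principal transcript (rlog minus the log2 of its length in kb), *Hspd1* stood at 12.58 and *Hspe1* at 11.64 in control cells, and at 11.70 and 11.22 in treated cells.

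Other mitochondrial members fell as well. *Hspa9* (mortalin), the HSP70 of the matrix and of the import motor, had values of 13.56, 13.52 and 13.57 in control and 12.90, 12.94 and 13.02 in treated samples. The groups were well apart. *Hspa9* fell by 0.60 (standard error 0.052, adjusted p = 5.6e-05, limma), or 1.51-fold. The J-proteins of the organelle followed with smaller differences. *Dnajc15* (−0.41) and *Dnajc19* (−0.35) are subunits associated with the import motor, *Dnajc11* (−0.27) is a partner of the inner membrane organizing system, and *Dnaja3* (−0.15) is the matrix partner of *Hspa9*. Of all genes tested, 25.3% were lower and 24.8% higher at the threshold. In all, 7 of the 8 members listed as mitochondrial were lower (87.5%) and 0 higher (limma), with a median difference of −0.38. At an unadjusted p under 0.05, 1 was higher. This was *Dnajc30*, a J-protein of the inner membrane, which stood at 8.18, 8.15 and 8.30 in control and at 8.33, 8.40 and 8.46 in treated samples (adjusted p = 0.072, limma). The 8 members were assigned by hand, so these counts hold for this list only. Of the 47 members assigned neither to the mitochondrion nor to the ER, 8 were higher and 19 lower at the threshold. These 47 include *Dnajc28* (0.47, higher) and *Dnajc4* (0.22, not past the threshold). Members outside the list may be mitochondrial too, so the counts do not show that no mitochondrial member rose.

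Some of these calls were lost with fewer samples or with other settings of the fit. Without the second control sample, the third control sample or the second treated sample, the number of mitochondrial members called lower went from 7 to 4, and with the pair of a shared library number counted as 1 sample it went to 5. *Dnajc15* and *Dnaja3* lost the call when any sample other than the third treated one was left out (adjusted p 0.052 to 0.11 and 0.066 to 0.099, limma) and with the pair counted as 1 sample (0.096 and 0.090), while their differences stayed at −0.45 to −0.31 and −0.16 to −0.13 in those fits. *Dnajc19* lost it without the second control (0.055), the third control (0.071) or the second treated sample (0.081), with differences of −0.37 to −0.26. With all 6 samples, *Dnajc15* (0.079) and *Dnajc19* lost the call with no limit on the mean, and *Dnaja3* (0.055) with a variance model without trend (limma). *Dnaja3* shares exon sequence on the opposite strand with *Coro7*, which rose by 0.74. *Hspd1*, *Hspe1*, *Hspa9* and *Dnajc11* kept the call at an adjusted p under 0.05 in each of the 12 other fits. With a minimum of 1 on the size of the log2 difference none of them was called, and at an adjusted p under 0.01 *Hspe1* was not.

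TRiC, the cytosolic chaperonin, is a double ring built from 8 different subunits. Of these, 6 were lower at the threshold, with a median difference of −0.41, and 0 were higher (limma). The shares over all genes tested were 25.3% lower and 24.8% higher, with a median difference of 0.01. At an unadjusted p under 0.05, 7 subunits were lower and 0 higher (limma). The mean over the 8 subunits was 12.94, 12.93 and 13.07 in control samples and 12.54, 12.56 and 12.75 with LY2090314. The third sample was the highest in both groups, and the groups did not overlap.

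*Cct8* (chromosome 16, 87483326 to 87495873, minus strand) went from 13.35, 13.33 and 13.45 to 12.83, 12.86 and 12.99, a difference of −0.49 (standard error 0.062, adjusted p = 0.00041, limma). *Cct3* (chromosome 3, 88297116 to 88321767, plus strand) had the most uniform values, from 12.86, 12.86 and 12.94 to 12.42, 12.40 and 12.46 (difference −0.46, standard error 0.048, adjusted p = 0.00015, limma). *Cct5* (chromosome 15, 31590800 to 31601804, minus strand) went from 13.67, 13.68 and 13.88 to 13.19, 13.20 and 13.49 (difference −0.45, standard error 0.097, adjusted p = 0.0061, limma). In each of them all treated samples were below all control samples. *Cct6a* (−0.44), *Cct7* (−0.39) and *Cct4* (−0.38) behaved alike, each with no overlap and an adjusted p of at most 0.0073 (limma). Exons of *Cct8*, *Cct7* and *Cct6a* overlap other genes on the opposite strand, *Usp16* (difference −0.04, not past the threshold), *Pradc1* (−0.43) and *Psph* (−0.29).

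The 2 remaining subunits were *Tcp1* and *Cct2*. *Tcp1* (the CCT1 subunit, chromosome 17, 12915701 to 12925067, plus strand) had values of 13.79, 13.73 and 13.86 in control and 13.39, 13.52 and 13.73 in treated samples. The groups touched without overlap, and the difference of −0.25 (standard error 0.089) missed the threshold (adjusted p = 0.051, limma). Without the third treated sample the difference was −0.34 and the adjusted p 0.0028. It also passed with centring on the median (0.045), with quantile normalization (0.0065) and with a limit of 5 on the mean (0.047). Exons of *Tcp1* overlap *Mrpl18* (difference −0.17, adjusted p = 0.049, limma) and *Acat3*, which was under the limit on the mean, on the opposite strand. *Cct2* (chromosome 10, 117051001 to 117063814, minus strand) was at 13.39, 13.41 and 13.46 in control and at 13.30, 13.31 and 13.53 in treated samples, with overlap, and its difference of −0.04 had a 95% interval of −0.21 to 0.13.

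Relative to the other subunits, *Cct2* was therefore higher with LY2090314. *Cct2* minus the mean of the other 7 subunits was 0.52, 0.55 and 0.45 in control samples and 0.87, 0.86 and 0.89 in treated samples. The gap between the groups was larger than the whole spread within either. This ratio within the complex was chosen with the differences of the subunits known, and it is given as a description. Per length, control levels of the subunits with a principal transcript lay between 10.91 (*Cct7*) and 12.85 (*Cct5*), with *Tcp1* (12.50) and *Cct2* (12.45) next to each other.

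**Figure D2:**
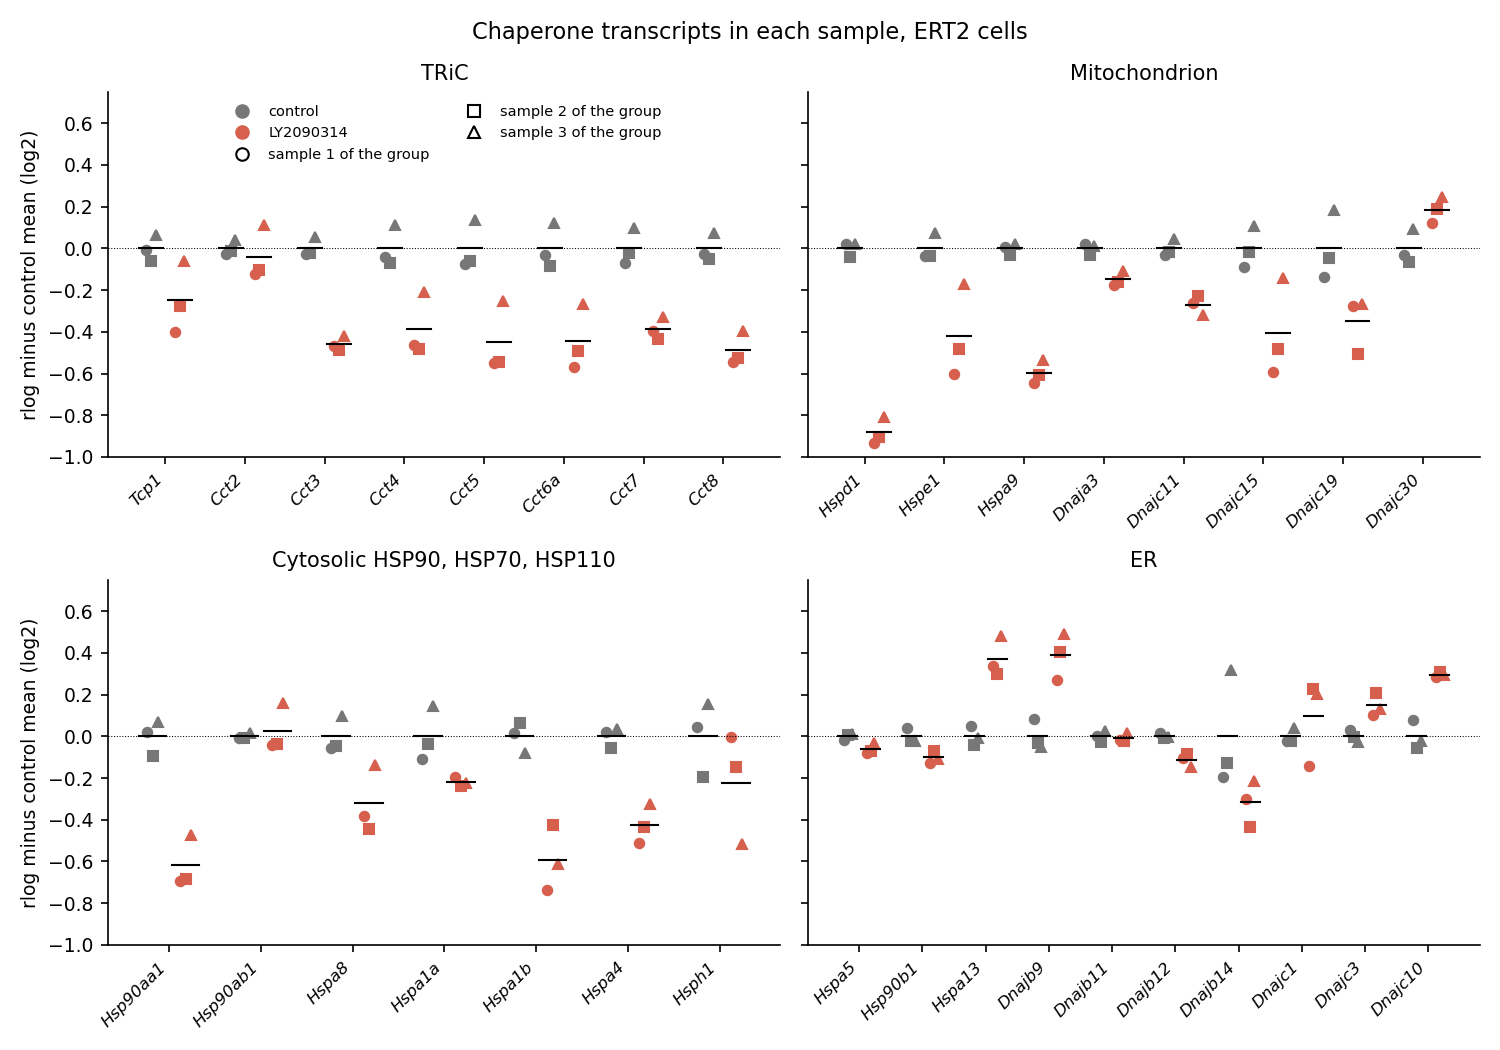
rlog value of each sample minus the control mean of the gene (log2, vertical axis) for TRiC subunits, mitochondrial members, cytosolic HSP90, HSP70 and HSP110, and ER members. Grey symbols are the 3 control samples, red symbols the 3 samples with LY2090314, the shape gives the sample and black lines are group means. Treated samples of *Hspd1* lie lowest, the treated and control samples of *Cct2* and *Hsp90ab1* overlap, and the ER panel holds genes on both sides of 0.

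The cytosolic HSP90 pair separated. *Hsp90aa1* (HSP90α, the inducible isoform, chromosome 12, 110690605 to 110702728, minus strand) had values of 14.84, 14.73 and 14.89 in control and of 14.13, 14.14 and 14.35 with LY2090314. Treated samples were below all control samples. The fall was 0.62 (standard error 0.083, adjusted p = 0.00054, limma), 1.53-fold on the linear scale. *Hsp90ab1* (HSP90β, the constitutive isoform, chromosome 17, 45567775 to 45573271, minus strand) was at 16.45, 16.45 and 16.47 in control and at 16.41, 16.42 and 16.61 in treated samples. The groups overlapped, and the difference of 0.03 (95% interval −0.21 to 0.26, adjusted p = 0.85, limma) takes the other sign with median centring and without the third treated sample, and was 0.21 with quantile normalization (adjusted p = 0.11, limma). *Hsp90aa1* minus *Hsp90ab1* was −1.60, −1.72 and −1.58 in control samples and −2.29, −2.28 and −2.27 in treated samples, with no overlap.

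Per transcript length, *Hsp90ab1* was the most abundant member (15.12 in control, 15.15 in treated cells), followed in control cells by *Hspa8* (14.32) and *Hsp90aa1* (13.11, and 12.49 in treated cells). *Hsp90b1*, the HSP90 of the ER, was at 12.30 and 12.20 on this scale. Its rlog values were 13.84, 13.77 and 13.77 in control and 13.67, 13.73 and 13.69 in treated samples, apart by a small gap, and the difference of −0.10 did not pass (adjusted p = 0.14, limma).

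Among HSP70 genes, 3 of 7 fell and 1 rose, which is 57.1% called against 50.1% of all genes tested. Besides *Hspa9*, *Hspa8* (HSC70, the constitutive cytosolic form, chromosome 9, 40800984 to 40810087, plus strand) went from 15.53, 15.54 and 15.68 to 15.20, 15.14 and 15.44. The third treated sample stood close to the controls. The fall of 0.32 (standard error 0.10, adjusted p = 0.031, limma) kept its size but not its call with fewer samples: leaving out any sample other than the third treated one gave differences of −0.35 to −0.26 with an adjusted p of 0.060 to 0.12, and counting the pair with a shared library number as 1 sample gave −0.28 (0.11). With all 6 samples but no limit on the mean, the call was lost too (adjusted p = 0.061, limma). Exons of *Hspa8* hold the small nucleolar RNA genes *Snord14c*, *Snord14d* and *Snord14e*, which were listed at 0.

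The stress-inducible HSP70 genes *Hspa1a* and *Hspa1b*, neighbours on chromosome 17, were among the least expressed members. *Hspa1b* (34956436 to 34959238, minus strand) went from 5.74, 5.79 and 5.65 to 4.99, 5.30 and 5.11, a fall of 0.59 with no overlap (standard error 0.11, adjusted p = 0.0023, limma). *Hspa1a* (34969190 to 34972156, minus strand) was at 3.62, 3.69 and 3.87 in control and at 3.53, 3.49 and 3.50 in treated samples (difference −0.22, adjusted p = 0.070, limma). Their coding sequences are nearly identical, so the split of reads between them is uncertain and neither value is firm on its own. With quantile normalization *Hspa1a* passed (−0.32, adjusted p = 0.021, limma). *Hspa2*, with a control SD of 0.41, did not pass (−0.25).

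Of the HSP110 genes, which act as nucleotide exchange factors of HSP70, 1 of 3 passed (33.3%, against 50.1% of all genes tested). *Hspa4* (APG-2, chromosome 11, 53259814 to 53300457, minus strand) went from 13.26, 13.19 and 13.28 to 12.73, 12.81 and 12.92, a difference of −0.42 with no overlap (standard error 0.062, adjusted p = 0.00086, limma). *Hsph1* (HSP105) ranged from 7.26 to 7.62 in control and from 6.95 to 7.46 in treated samples, with overlap (−0.22, adjusted p = 0.26, limma), and *Hspa4l* differed by −0.17 (adjusted p = 0.17, limma). Another exchange factor, *Hspbp1* (chromosome 7, 4660521 to 4685068, minus strand), had the second largest fall of all members. It went from 9.33, 9.49 and 9.61 to 8.90, 8.71 and 8.86, a difference of −0.66 (standard error 0.088, adjusted p = 0.00054, limma) with no overlap.

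Of 10 members assigned by hand to the ER, 4 were higher and 0 lower at the threshold (limma), with a median difference of 0.04. That is 40.0% called, below the 50.1% of all genes tested (24.8% higher and 25.3% lower), whose median difference was 0.01. These counts, the share and the median hold for this list only, since members outside it may belong to the ER too. At an unadjusted p under 0.05, 2 were lower, *Dnajb12* and *Dnajb14*. With centring on the median or quantile normalization, *Dnajb12* (−0.14 in both) passed as lower, and without the first control sample *Dnajb14* did (−0.41, adjusted p = 0.049, limma).

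*Dnajb9* (ERdj4, a BiP cochaperone, chromosome 12, 44205559 to 44210326, minus strand) was at 8.44, 8.33 and 8.31 in control and at 8.63, 8.77 and 8.85 with LY2090314. It rose by 0.39 (standard error 0.080, adjusted p = 0.0048, limma), 1.31-fold. *Hspa13* (an ER-associated HSP70 with an ATPase domain, chromosome 16, 75745431 to 75767104, minus strand) went from 9.66, 9.56 and 9.60 to 9.94, 9.90 and 10.08, a rise of 0.37 (standard error 0.063, adjusted p = 0.0018, limma). For both genes the treated samples lay above all control samples. *Dnajc10* (ERdj5, a disulfide reductase, chromosome 2, 80315466 to 80354043, plus strand) rose from 11.01, 10.87 and 10.91 to 11.21, 11.24 and 11.22 (difference 0.30, standard error 0.050, adjusted p = 0.0018, limma). *Dnajc3* (p58IPK) rose by 0.15 (adjusted p = 0.032, limma), a call that was lost with median centring (0.068), with the pair of a shared library number as 1 sample (0.063) and without the first, the second or the third control or the second treated sample (0.055 to 0.12), at differences of 0.12 to 0.16. A variance model without trend ended it too (0.066, limma).

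The major ER chaperones did not pass. *Hspa5* (BiP, chromosome 2, 34771970 to 34777547, plus strand) was at 13.33, 13.36 and 13.36 in control and at 13.27, 13.28 and 13.32 in treated samples. The treated values were slightly lower without overlap, and the difference of −0.06 had a 95% interval of −0.17 to 0.05 (adjusted p = 0.31, limma). *Dnajb11*, another BiP partner, differed by −0.01 (95% interval −0.11 to 0.09). Against the mitochondrial HSP70, *Hspa5* minus *Hspa9* went from −0.23, −0.16 and −0.21 to 0.37, 0.33 and 0.30, with no overlap. Per length, *Hspa5* (11.47) was below *Hspa9* (11.94) in control cells, whereas in treated cells the levels were 11.41 and 11.35.

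**Figure D3:**
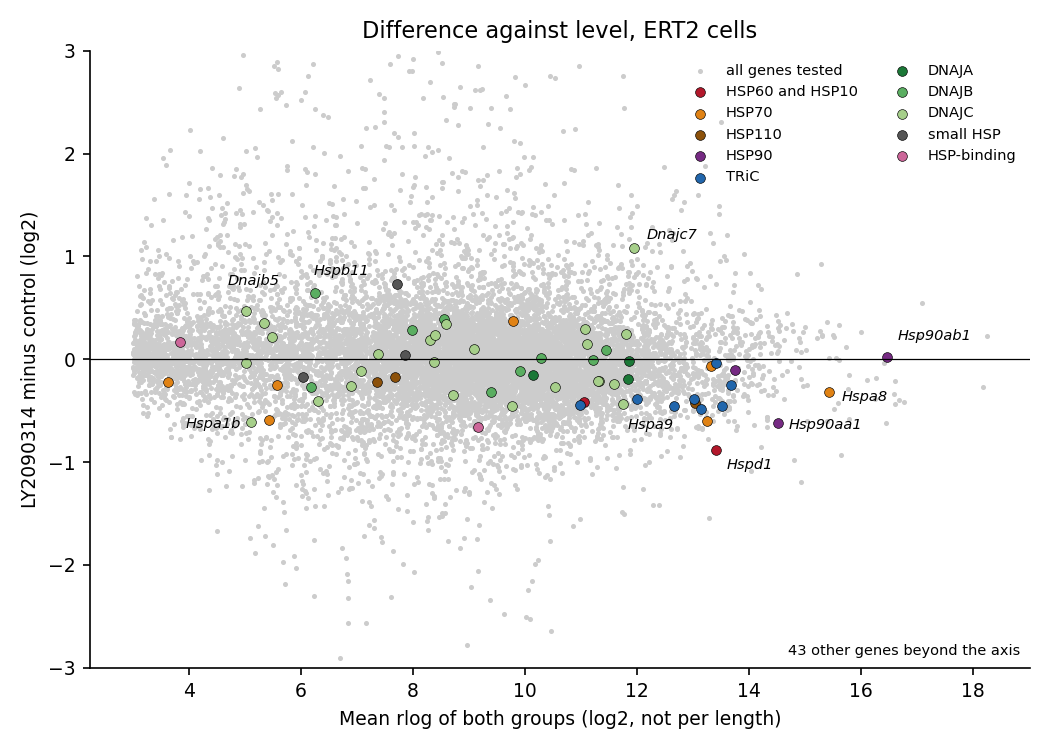
Difference between groups (log2, LY2090314 minus control, vertical axis) against the mean rlog of both groups (log2, not per length, horizontal axis) for the 65 members, coloured by class, over all genes tested in grey. *Hsp90ab1* is the member with the highest mean and lies near 0, *Hspd1* is lowest and *Dnajc7* highest, and 43 other genes lie beyond the limits of the vertical axis.

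The DNAJ families are the largest set of members. Of 37 tested, 10 rose (27.0%) and 12 fell (32.4%), near the shares over all genes (24.8% and 25.3%), with a median of −0.02. Among cytosolic partners of HSP70, *Dnaja1* and *Dnajb1* did not pass. *Dnaja1* was at 11.88, 11.85 and 11.85 in control and at 11.79, 11.80 and 11.93 in treated samples (difference −0.02, 95% interval −0.14 to 0.10), and *Dnajb1* (HSP40), a classical heat shock gene, at 10.25, 10.26 and 10.30 and at 10.24, 10.29 and 10.32 (difference 0.01, 95% interval −0.10 to 0.12). The groups overlapped in both genes. *Dnaja2* fell by 0.19 (adjusted p = 0.013, limma), and its adjusted p was 0.0504 without the first and 0.0501 without the second treated sample.

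*Dnajc7* (TPR2, a cochaperone with tetratricopeptide repeats that binds both HSP70 and HSP90, ENSMUSG00000014195, chromosome 11, 100582818 to 100620168, minus strand) had the largest difference of all members. Its values were 11.41, 11.42 and 11.40 in control and 12.51, 12.46 and 12.51 in treated samples. The spread within each group was less than 0.10, and the rise was 1.09 (standard error 0.042, adjusted p = 7.6e-07, limma), or 2.12-fold. Exons of *Dnajc7* overlap *Cnp* and *Nkiras2* on the opposite strand, which rose by 0.73 (adjusted p = 5.2e-05, limma) and 0.37 (adjusted p = 0.0015, limma). The part of their reads in the value of *Dnajc7* was not tested.

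The next rises were those of *Hspb11* and *Dnajb5*. *Hspb11* (chromosome 4, 107253593 to 107279938, plus strand), which carries a heat shock symbol but is known as the intraflagellar transport subunit IFT25, went from 7.28, 7.22 and 7.54 to 7.89, 8.07 and 8.28, a rise of 0.73 with no overlap (standard error 0.13, adjusted p = 0.0019, limma). *Dnajb5* was at 6.32, 5.79 and 5.69 in control and at 6.77, 6.31 and 6.66 in treated samples. The lowest treated value lay within the control range, and the call of this rise of 0.65 (adjusted p = 0.023, limma) was lost without the second or the third control or the first or the third treated sample (0.051 to 0.077). It was also lost with no limit on the mean. The true small heat shock proteins *Hspb8* (0.05) and *Hspb6* (−0.17) did not pass. With quantile normalization *Hspb8* was at −0.03, and *Hspb6* was at −0.25 and passed (adjusted p = 0.039, limma).

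Smaller rises were found for *Dnajc28* (0.47), *Dnajc18* (0.35), *Dnajb4* (0.28), *Dnajc5* (0.25) and *Dnajc16* (0.24), each with treated values above all control values. *Dnajc5* encodes the cysteine string protein of vesicles. It stood at 11.66, 11.68 and 11.68 in control and at 11.91, 11.91 and 11.95 with LY2090314 (standard error 0.041, adjusted p = 0.0017, limma), and this narrow spread made its call one of the firm ones. *Dnajb4* lost the call without the second control (0.076), the third control (0.069) or the first treated sample (0.067), and *Dnajc16* without the first or the third control or the first or the second treated sample (0.069 to 0.11, limma), and with the pair of a shared library number as 1 sample (0.079). Both genes also lost it with quantile normalization.

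Among the J-proteins that fell, *Dnajc6* (auxilin, which uncoats clathrin vesicles) went from 5.52, 5.45 and 5.28 to 4.85, 4.74 and 4.83 (difference −0.61, standard error 0.094, adjusted p = 0.0011, limma). *Dnajc21*, which acts in the maturation of the large ribosomal subunit, went from 10.00, 9.96 and 10.01 to 9.51, 9.60 and 9.50 (difference −0.46, standard error 0.053, adjusted p = 0.00026, limma). Neither gene had overlapping groups. *Dnajc2*, the ribosome-associated J-protein also called MPP11, fell by 0.43 (adjusted p = 0.00098, limma). *Dnajc8* (−0.21) and *Dnajc17* (−0.26), which are linked to splicing, *Dnajc9* (−0.21), a histone chaperone, and *Dnajc13* (−0.24), an endosomal protein, were lower too. Of these, *Dnajc17* lost the call without the first or the third control or the first or the second treated sample (0.10 to 0.12, limma) and with the pair of a shared library number as 1 sample (0.10), and *Dnajc13* without the first or the second control or the second or the third treated sample (0.0505 to 0.105, limma). *Dnajc13* also lost it with no limit on the mean.

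Among the members that did not pass, the largest estimates were those of *Dnajc14* and *Dnajb14*. *Dnajc14* differed by 0.35 with an SD of 0.56 in each group, and it shares exon sequence on the same strand with *Sarnp*. *Dnajb14* differed by −0.32 with a control SD of 0.28. *Dnajb2* (−0.27), *Hspa2*, *Dnajc1* (0.10) and *Dnajc30* each passed in 1 of the fits that left out a sample, without the second treated (−0.41), the second control (−0.45), the first treated (0.22) and the third control sample (0.23), respectively. The members without a call that are not named above lay between −0.11 (*Dnajc25*) and 0.06 (*Dnajc24*). *Hspbap1*, named above for its level only, differed by 0.17.

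The cofactors of the chaperones were read from 6 lists in the same fit. Of 54 listed genes, 50 were above the limit, and 26 were lower and 4 higher at the threshold (limma), or 60.0% called, against 50.1% of all genes tested (25.3% lower and 24.8% higher), with a median difference of −0.24. The heat shock factors did not pass. *Hsf1*, the main activator of heat shock genes, ranged from 6.44 to 6.55 in control samples and overlapped with the treated samples, which reached 6.87 (difference 0.15, adjusted p = 0.30, limma), and *Hsf2* differed by 0.13 (adjusted p = 0.30, limma). Neither passed at an unadjusted p under 0.05.

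In the list of the HSP90 paralogue and cochaperones, 9 of 17 genes were lower and 1 higher. That is 58.8% called, against 50.1% of all genes tested (25.3% lower and 24.8% higher). The lowest was *Fkbp5*, an immunophilin that binds HSP90 in steroid receptor complexes, which went from 11.27, 11.17 and 11.11 to 9.65, 9.55 and 9.81 (difference −1.52, standard error 0.077, adjusted p = 2.9e-06, limma). *Trap1*, the mitochondrial HSP90 paralogue, went from 11.27, 11.23 and 11.30 to 10.64, 10.64 and 10.71 (difference −0.60, adjusted p = 2.5e-05, limma). All treated samples of both genes were below all control samples. *Ahsa2*, an activator of the HSP90 ATPase, was the gene that rose (0.47, adjusted p = 0.017, limma), and its call was lost without the second control (0.060) or the first treated sample (0.054), and with no limit on the mean. Its relative *Ahsa1* fell by 0.39.

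Of 11 nucleotide exchange factors and regulators of HSP70, 7 were lower and 1 higher. That is 72.7% called, against 50.1% of all genes tested (25.3% lower and 24.8% higher). *Bag2* was the lowest (−0.63, adjusted p = 0.00035, limma). The gene that rose was *Hyou1* (GRP170), the exchange factor of the ER, from a mean of 12.06 ± 0.048 to 12.22 ± 0.050 (SD, n = 3 each, difference 0.17, adjusted p = 0.024, limma). This call was lost without the first (0.089) or second control (0.064) or the second treated sample (0.052), and with median centring. *Sil1*, the other ER exchange factor of the list, fell by 0.31.

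Prefoldin, which hands clients to TRiC, and the phosducin-like modulators moved in both directions, with 1 of 9 lower (*Pfdn6*, −0.64) and 2 higher (*Pdcl*, 0.42, and *Pfdn5*, 0.29), a called share of 33.3%, below that of all genes. All 4 genes of R2TP, an HSP90-linked assembly complex, fell, from *Ruvbl2* (−0.65) to *Rpap3* (−0.26). Of 7 mitochondrial proteases and disaggregases, 5 were lower and 0 higher (limma; 0 also at an unadjusted p under 0.05). The called share was 100% in R2TP and 71.4% in this list, against 50.1% of all genes tested (25.3% lower and 24.8% higher). *Clpb*, a disaggregase of the intermembrane space, was at 9.57, 9.85 and 9.85 in control and at 8.55, 8.47 and 8.85 in treated samples (difference −1.13, adjusted p = 0.00014, limma), with no overlap, and *Clpx* differed by 0.09 and did not pass. Across the lists the number of genes called higher, 4, went to 1 without the second control sample and to 2 without the first.

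**Figure D4:**
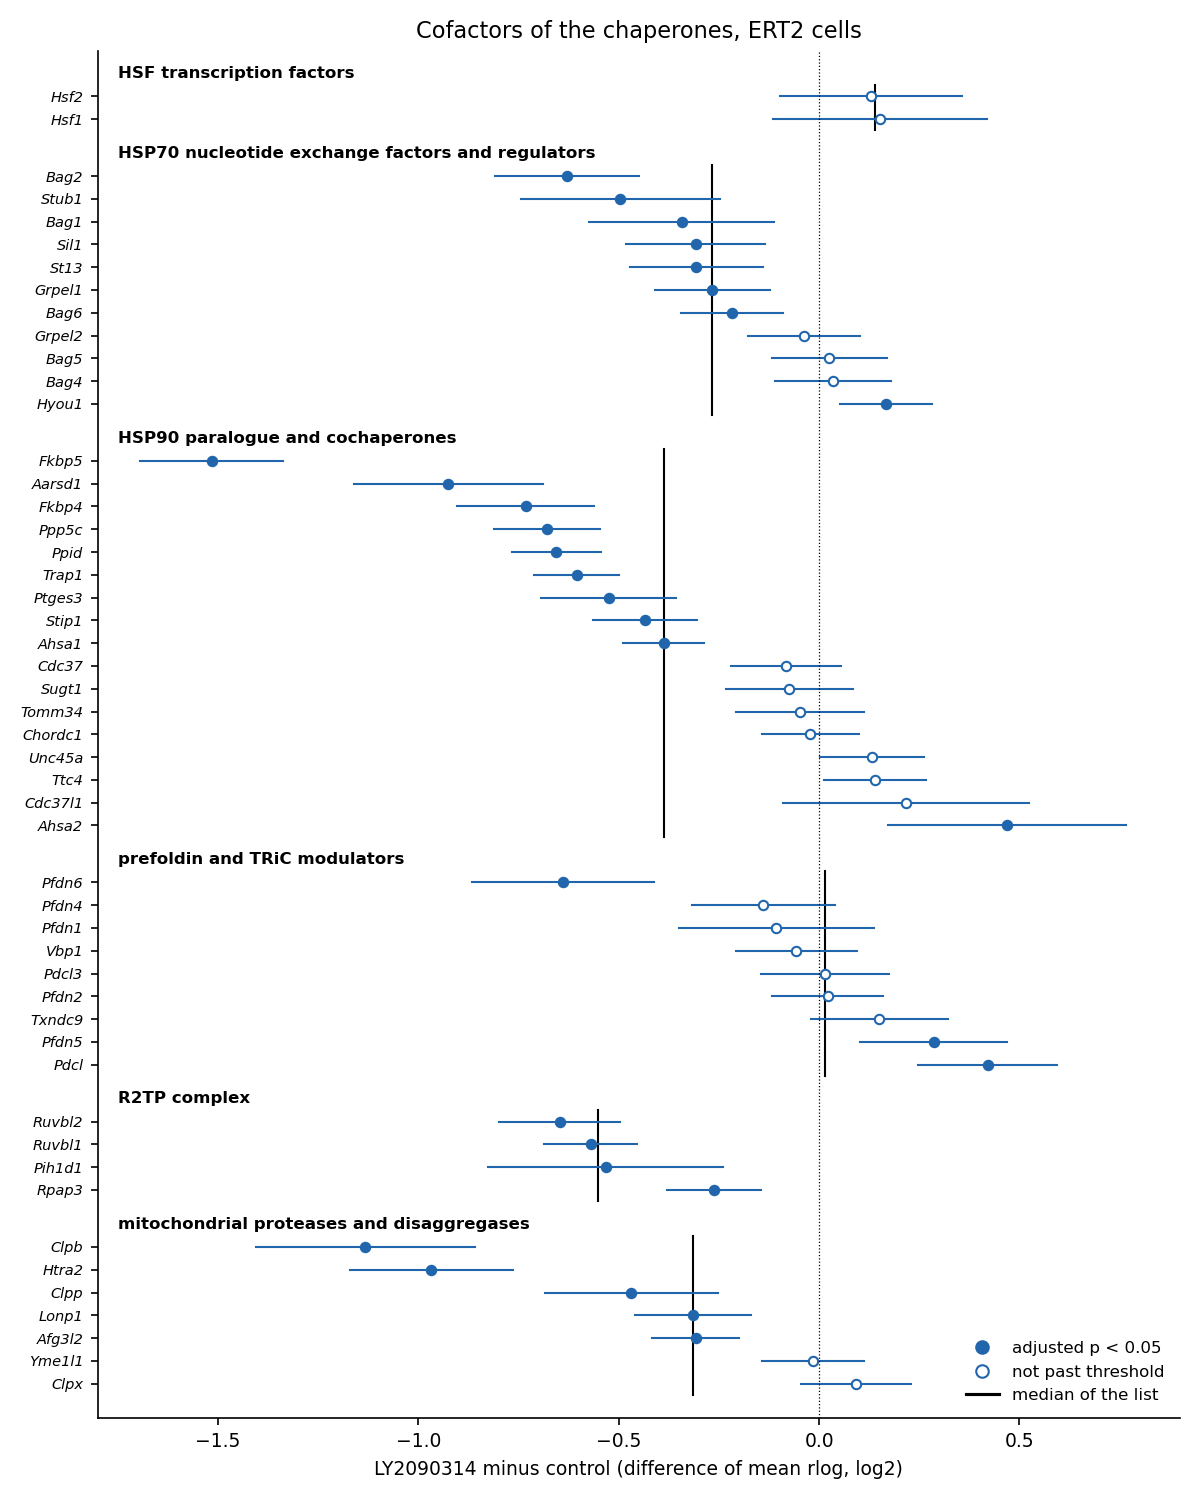
Difference of the mean rlog value (log2, LY2090314 minus control, horizontal axis) for the 50 cofactor genes above the limit, grouped by list, with 95% confidence intervals from limma (3 samples per group). Filled points passed an adjusted p under 0.05 and vertical black lines are list medians. *Fkbp5* is lowest at −1.52, all 4 genes of R2TP lie below 0, and both heat shock factors have intervals that include 0.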

How the data were processed

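RNA-seq libraries of polyadenylated RNA were made with a stranded kit and sequenced as paired ends. Per the labels and the study's methods, the authors aligned reads to GRCm38 with STAR, used Salmon to quantify transcripts, and worked with FastQC 0.11.9, SAMtools 1.7, Picard 2.23.8 and DESeq2 1.30.1. They deposited 1 table of log2 values (rlog) for 41444 genes. Read counts were not used here, so depth is unknown, no counting interval can be given and no count test was run. Of 12 columns, 6 were matched to a group by name. The other 6 were not used: each name holds both Cre and LY, spelled in 2 ways, and no name fits untreated CreERT2 cells.

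Symbols were matched to 41157 genes. Genes with a mean rlog of at least 3 over the 6 samples (11536) were fitted with limma 3.58.1 in R 4.3.3 (lmFit and trended eBayes), and p-values were adjusted over all of them by Benjamini-Hochberg, with a threshold of 0.05. The script was checked on simulated data. Positions and transcript lengths are from GENCODE vM21. The symbol rule, the lists and the alternatives were chosen with earlier results of these data known. Named are the main heat shock genes and all TRiC subunits, the 10 largest rises and falls among members past the threshold without overlap, and the extremes of each cofactor list; other genes were named after their values were seen. Alternatives were another variance model, other limits on the mean, median centring, quantile normalization, leaving out each sample, counting the pair with a shared library number as 1 sample, stricter calls, and members without overlapping exons or without *Hspa1a* and *Hspa1b*.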

Additional observations from a re-analysis of the deposited data

How the results depend on the processing

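Of the 38 members called, 27 kept the call in each of 12 other fits at an adjusted p under 0.05, 11 lost it in at least 1 and 0 changed sign. Of the members without a call, 9 passed in at least 1 setting. The number of members called, 38, went to 25 at an adjusted p under 0.01 and to 1 with an added minimum of 1 on the size of the log2 difference, and lay between 30 and 37 with 1 sample left out. Members called higher, 12, went to 7 and 1 (9 to 11), and members called lower, 26, to 0 with the limit on the difference (20 to 26). That limit also took TRiC subunits called lower from 6 to 0 (6 to 7 with 1 sample left out), ER members called higher from 4 to 0 (3 to 5), mitochondrial members called lower from 7 to 0 (4 to 7), DNAJ members called from 22 to 1 (15 to 20), cofactors called lower from 26 to 2 (24 to 28), cofactors called higher from 4 to 0 (1 to 5) and all genes called from 5778 to 693 (4734 to 6228). At an adjusted p under 0.01, mitochondrial members called lower were 3, DNAJ members called 11 and cofactors called higher 1. ER members called lower, 0, were 1 with median centring and 1 with quantile normalization (0 to 1 with 1 sample left out), and cofactors called higher were 2 with no limit on the mean. Quantile normalization gave 10 members higher and 30 lower, and with the shared library number counted as 1 sample, 32 members were called.

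Members that changed sign were all near 0 and without a call. With quantile normalization *Hsp90ab1* moved to 0.21 without a call. With median centring *Dnajb1* was at −0.013 and *Hsp90ab1* at −0.00073, with quantile normalization *Hspb8* was at −0.032, and with the shared number as 1 sample *Dnaja1* was at 0.0041. With 1 sample left out, the ranges were −0.021 to 0.0034 for *Dnajb11*, −0.0071 to 0.037 for *Dnajb1*, −0.092 to 0.066 for *Dnajc27*, −0.040 to 0.060 for *Hsp90ab1*, −0.065 to 0.0070 for *Dnaja1*, −0.11 to 0.0024 for *Cct2*, −0.15 to 0.049 for *Dnajc12* and −0.0099 to 0.092 for *Hspb8*.

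No paired analysis was possible because the names of the treated columns do not hold the replicate numbers of the sample titles. Depth is unknown, so which differences it limits was not assessed.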
